A study of Mus musculus with 2 samples.

Results

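Interferon-stimulated genes other than the interferon-inducible GTPases were compared between the livers of L-Lpcat3 KO and Flox/Flox mice. The group holds 34 genes, listed by symbol rather than by a threshold on their values. The list was drawn up with earlier results of these data known. Each gene was matched to the array by gene ID, through all probe sets that list that gene alone. Of the 34 genes, 32 had such a probe set, against 18194 genes on the whole array, and 56 probe sets in all belonged to them. A gene was measured if its brightest probe set lay above a floor, the median of all signals (76.4), in at least 1 pool. This left 30 members among 12059 measured genes.

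Flox/Flox mice (Lpcat3fl/fl) were homozygous for a floxed Lpcat3 allele and carried no Cre. L-Lpcat3 KO mice (Lpcat3fl/fl Albumin-Cre) had the same floxed alleles together with a Cre transgene driven by the albumin promoter, which is active in hepatocytes. The paper names cells without expression of the transgene, such as Kupffer cells, as the likely source of residual Lpcat3 RNA in whole liver. Deletion by cell type was not measured here. All mice were male, 12 weeks old, fed chow and fasted for 6 hr. RNA from 5 livers was pooled per genotype and hybridized to 1 array each, so there are no replicates, no test was run, and every ratio is a single value without a measure of variation among mice. On the array, the Lpcat3 signal stood at 3310 for Flox/Flox against 1305 for L-Lpcat3 KO, a 2.54-fold difference. Its 1 probe set may read RNA outside the deleted exon. Hepatocyte markers such as Apoa1 were bright in both pools, and the median log2 ratio of all measured genes was 0.0032.

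Interferons are cytokines released on infection or when foreign nucleic acid is sensed. Type I interferons act through a receptor found on nearly all cells and assemble a complex of STAT proteins and Irf9 on interferon-stimulated response elements (ISREs). Interferon-gamma, made by T cells and NK cells, acts through STAT dimers on gamma-activated sites (GAS). In liver both hepatocytes and Kupffer cells respond. The induced proteins detect viral RNA, stop translation, degrade RNA or block viral entry and release, and some feed back on the pathway. From general knowledge of these responses, the members were sorted into 21 led by type I interferons, 3 led by interferon-gamma (Irf1, Irf8 and Socs1) and 10 that answer to both.

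The proximal promoters of some members hold such elements, which were not used to sort the members into classes. RefSeq windows (GRCm38.p6, 250 bases before to 50 after each annotated start) were given for 26 of the 34 members and were searched on both strands for the ISRE core GAAANNGAAA and the GAS core TTCNNNGAA. An ISRE core was found in the windows of 12 of the 26 members (46.2%), against 3.99% of all 27025 genes with a window. A GAS core was found in 10 (38.5%), against 9.55% of all genes. Both cores were present for 4 members, and 8 members had neither in these windows. The cores did not follow the classes throughout. For Socs1, of the interferon-gamma class, the window holds 2 ISRE cores and no GAS core. Stretches of Irf1 and of the members with the lowest ratios, among those that hold a core and lay above the floor in both pools, are printed to show which elements stand beside the values that follow. Ifit2, with 1 pool under the floor, is therefore not shown, and its windows hold a GAS core and no ISRE core. Core letters are in capitals, other bases in lower case, and each stretch runs 5′ to 3′ in the direction of its gene. An ISRE core on the opposite strand reads as its reverse complement, as in Ifit1.

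In Irf1 (chr11:53769894-53769962, plus strand) the capitals mark 1 GAS core, which starts at -90 from the annotated start of the gene. In Ifit1 (chr19:34640755-34640843, plus strand) they mark 2 ISRE cores, at -104 and -85. In Rsad2 (chr12:26456533-26456602, minus strand) they mark 1 ISRE core, at -120. In Eif2ak2 (chr17:78882543-78882780, minus strand) they mark a GAS core at -178 and an ISRE core at 18, past the start. In Ddx58 (chr4:40239796-40239853, minus strand) the ISRE core lies at the start itself. In Bst2 (chr8:71537557-71537638, minus strand) a GAS core overlaps the first of 2 ISRE cores. Such a match describes the letters only and does not show that a factor binds there.
Irf1: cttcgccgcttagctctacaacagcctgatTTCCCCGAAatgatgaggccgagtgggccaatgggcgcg
Ifit1: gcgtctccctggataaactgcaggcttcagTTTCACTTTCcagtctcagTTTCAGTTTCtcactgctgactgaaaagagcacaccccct
Rsad2: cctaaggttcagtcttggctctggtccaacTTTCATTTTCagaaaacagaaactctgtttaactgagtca
Eif2ak2: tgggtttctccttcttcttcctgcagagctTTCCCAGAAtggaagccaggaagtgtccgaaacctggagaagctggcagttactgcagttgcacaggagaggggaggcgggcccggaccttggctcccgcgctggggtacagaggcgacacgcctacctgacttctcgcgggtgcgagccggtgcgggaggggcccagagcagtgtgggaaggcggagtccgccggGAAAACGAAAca
Ddx58: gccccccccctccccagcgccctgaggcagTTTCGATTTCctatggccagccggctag
Bst2: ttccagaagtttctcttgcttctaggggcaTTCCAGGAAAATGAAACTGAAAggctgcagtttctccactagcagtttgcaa

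Most members were lower in L-Lpcat3 KO, by small amounts. The antiviral effectors Ifit1, Ifit2 and Rsad2, the sensor Zbp1 and the feedback protease Usp18 were at least 1.5-fold lower, whereas none of the transcription factors that drive the program differed by that size. Of the 30 measured members, 23 had a log2 ratio (L-Lpcat3 KO over Flox/Flox) below 0, which is 76.7%, against 49.3% of all measured genes. The median was -0.23. At the 1.5-fold size, 5 members were lower (16.7%), against 3.14% of all measured genes, and 2 members, Oas2 and Sp100, were higher, against 4.01% of all. Ifit2 and Sp100 counted as measured through 1 pool alone. Where neither pool was under the floor, 4 of 28 members were lower by this size (14.3%), against 2.61% of all such genes, and Oas2 was higher, against 2.98%. Of all 30 members, the other 23 lay within 1.5-fold. With both arrays centred on their medians, 25 members (83.3%) and 63.1% of all measured genes were below 0. Oas2 and Sp100 both exceeded 2-fold, a size reached upward by 0.556% of all measured genes.

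**Figure D1:**
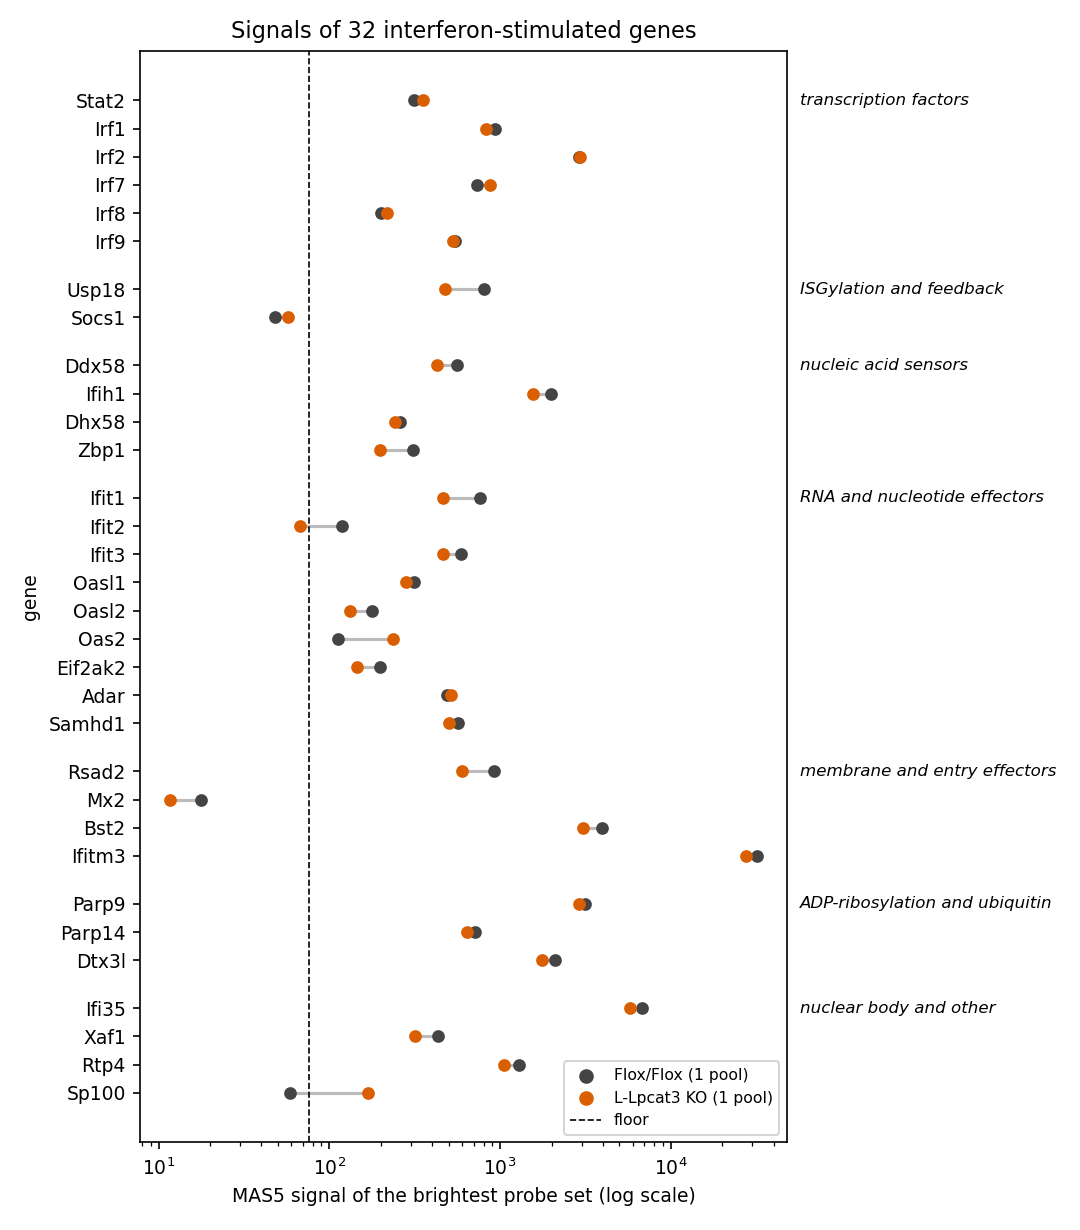
MAS5 signal (x axis, log scale) of the brightest probe set of each of the 32 members with a probe set (y axis), grouped by role; dark points are the Flox/Flox pool, orange points the L-Lpcat3 KO pool and the dashed line the floor (76.4). The orange point lies to the left for most effectors and sensors, such as Ifit1 (762 against 464), while Irf2 and Irf9 overlap and Oas2 and Sp100 lie to the right.

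The size of a ratio on these arrays depended on signal. Measured genes were split at the 75th percentile of all signals (387), on the geometric mean of both pools. Above it, 0.968% of genes passed the 1.5-fold size downward, and below it 6.18%. Of the 19 members above, 3 passed that size downward (Usp18, Ifit1 and Rsad2), none passed it upward, and 16 had ratios below 0, against 51% of all genes of such signal. Of the 11 members below, 2 were lower by that size (Ifit2 and Zbp1) and 2 higher (Oas2 and Sp100), against 8.3% of all dim genes higher, and 7 had ratios below 0, against 46.8%. Both members that were 2-fold higher are thus among the dim ones, where ratios of all genes spread most (SD of 0.41 on the log2 scale across genes, against 0.22 above).

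**Figure D2:**
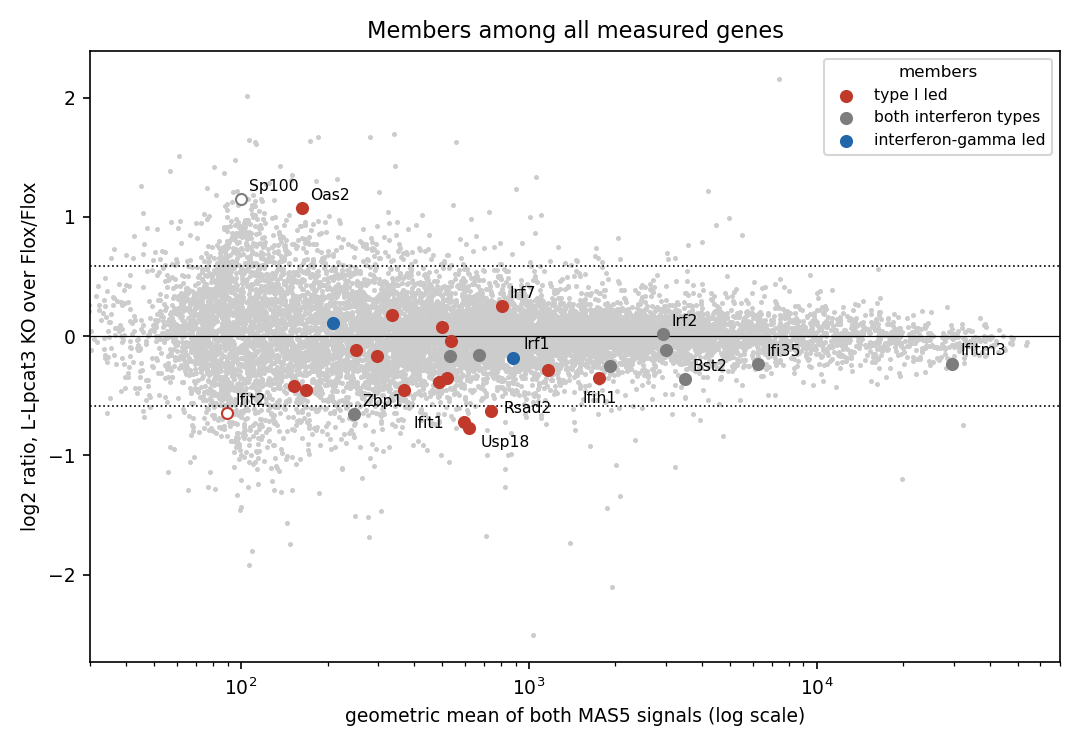
Log2 ratio (y axis) by signal (x axis, geometric mean over the pools, log scale) for 12059 measured genes in grey and the 30 measured members in colour by class; open points have 1 pool at the floor and dotted lines mark 1.5-fold. Usp18 (-0.77), Ifit1 (-0.72) and Rsad2 (-0.63) lie at the lower edge of genes of like signal, and Oas2 (1.07) and Sp100 (1.15) lie at the dim end.

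The transcription factors of the pathway lay on both sides of 0, all within 1.5-fold. Stat2, a subunit of the complex that type I interferons activate, read 314 for Flox/Flox against 356 for L-Lpcat3 KO (log2 ratio 0.18), and its other probe set gave 195 and 213 (0.13). Irf9, the DNA-binding subunit of that complex, was 542 and 528 (-0.04). Irf7, which amplifies type I interferon production and is itself induced, was 737 and 878 (0.25). The L-Lpcat3 KO pool was thus slightly higher for Stat2 and Irf7 and nearly level for Irf9. Irf1, an early target of interferon-gamma, was 938 and 827 (-0.18). Irf2, which competes with Irf1 for the same sites, was 2903 and 2938 (0.02). Irf8, a factor of myeloid cells, was 201 and 217 (0.11), while its second probe set lay below the floor in both pools. Of these 6 genes, 4 had ratios above 0 and 2 below, where 49.3% of all measured genes were below 0, with Irf2 turning to -0.06 under median centring.

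The feedback genes were represented by Usp18 alone. This protease removes Isg15 from its target proteins and blocks signalling at the type I receptor. Its signal was 808 for Flox/Flox against 473 for L-Lpcat3 KO. This 1.71-fold lower value (log2 ratio -0.77) was the lowest of any measured member. Socs1, which inhibits the receptor kinases, did not reach the floor (48.1 and 57.1). Isg15, the ubiquitin-like modifier itself, had no probe set of its own.

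By their brightest probe sets, all 4 sensors of foreign nucleic acid had ratios below 0, as did 49.3% of all measured genes. Zbp1, which binds left-handed nucleic acid and can start necroptosis, was 310 and 197 (1.57-fold lower). Its other probe set was 99.9 in Flox/Flox and below the floor in L-Lpcat3 KO (15.5), at least 1.31-fold lower. Ddx58 (RIG-I), a helicase that detects viral RNA ends, was 558 and 426 (log2 ratio -0.39), with -0.10 in a dimmer probe set. Ifih1 (MDA5), which detects long double-stranded RNA, was 1988 and 1557 (-0.35). Dhx58 (LGP2), which tunes both helicases, was 261 and 241 (-0.11). Its other probe set ran the opposite way close to the floor, with 58.3 and 79.6 (0.06). The Ddx58 promoter stretch printed above holds the ISRE core next to its start, and the Ifih1 window holds 1 as well.

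Effectors that act on RNA were mostly lower. Ifit1, which binds RNA lacking the host cap modification, was 762 and 464 (1.64-fold lower). Ifit2 was 119 in Flox/Flox and below the floor in L-Lpcat3 KO (67.2), at least 1.56-fold lower. Ifit3, a partner of Ifit1, was 587 and 461 (log2 ratio -0.35). The 3 Ifit genes were thus all lower, by 1.27-fold at the least, where 49.3% of all measured genes had ratios below 0. Ifit3 has a close paralog, whose RNA its probe set may also capture.

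The members from the oligoadenylate synthetase family were split. Oas2, which makes the second messenger for RNase L, stood at 113 for Flox/Flox against 237 for L-Lpcat3 KO (2.10-fold higher), by 1 dim probe set. Oasl1, which restrains translation of Irf7, was 315 and 280 (-0.17). Oasl2, a ubiquitin-like-domain relative, was 177 and 132 (-0.42). Among these members, Oas2 is therefore the 1 with a ratio above 0. These members were all dim by the split at 387, which does not describe family genes outside the group.

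Other effectors have roles in RNA and nucleotide metabolism. Eif2ak2 (PKR), the kinase that stops translation on double-stranded RNA, was 197 and 145 (-0.45) by its brightest probe set. Its other probe sets gave 0.09 and 0.31, in the opposite direction. Its promoter stretch above holds both cores. Adar, which edits adenosine in double-stranded RNA, was 488 and 515 (0.08), a sign that median centring turned. Samhd1, a deoxynucleotide hydrolase, was 565 and 503 (-0.17), with -0.31 and 0.52 in its other measured probe sets. For these genes the direction depended on the probe set, and no value passed 1.5-fold.

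Among effectors at membranes, Rsad2 (viperin), which makes a chain-terminating nucleotide, was 922 and 596 (1.55-fold lower). Its other probe sets were dimmer and nearly level, with 275 and 263 (-0.06) and 104 and 114 (0.12). Bst2 (tetherin), which holds budding virions at the cell surface, was 3944 and 3070 (-0.36). Ifitm3, which blocks fusion of entering viruses, was 32147 and 27400 (-0.23). Mx2, a dynamin-like antiviral protein, did not reach the floor (17.8 and 11.6). By brightest probe sets the measured genes of this role were all lower, where 49.3% of all measured genes had ratios below 0. The Rsad2 and Bst2 stretches above each hold an ISRE core.

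Parp9, Parp14 and Dtx3l, a set of ADP-ribosyltransferases and their ubiquitin ligase partner, had small ratios below 0. Parp9 was 3124 and 2887 (-0.11) and Parp14 712 and 638 (-0.16). Dtx3l, which binds Parp9, was 2090 and 1756 (-0.25) by its brightest probe set. Its other probe set, also well above the floor, was 1325 and 2030 (0.62), the opposite direction and past 1.5-fold.

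The last group was mixed in function. Xaf1, an antagonist of inhibitors of apoptosis, was 432 and 317 (-0.45). Its other probe set, close to the floor in Flox/Flox (77.4) and below it in L-Lpcat3 KO (58.4), gave -0.02 with the floor applied. Rtp4, a chaperone of receptors that is strongly induced by interferon, was 1283 and 1056 (-0.28). Its other probe set, below the floor in Flox/Flox (60.2) and at its edge in L-Lpcat3 KO (76.4), gave 0.0002 with the floor applied. Ifi35, a partner of Nmi, was 6813 and 5798 (-0.23), with -0.23 and -0.04 in its other probe sets. Sp100, a component of nuclear bodies, was under the floor for Flox/Flox (59.2) against 169 for L-Lpcat3 KO, at least 2.22-fold higher, and its second probe set did not reach the floor on either array. Ifi44 had no probe set of its own. By brightest probe sets, Sp100 is the 1 gene of this role with a higher value.

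**Figure D3:**
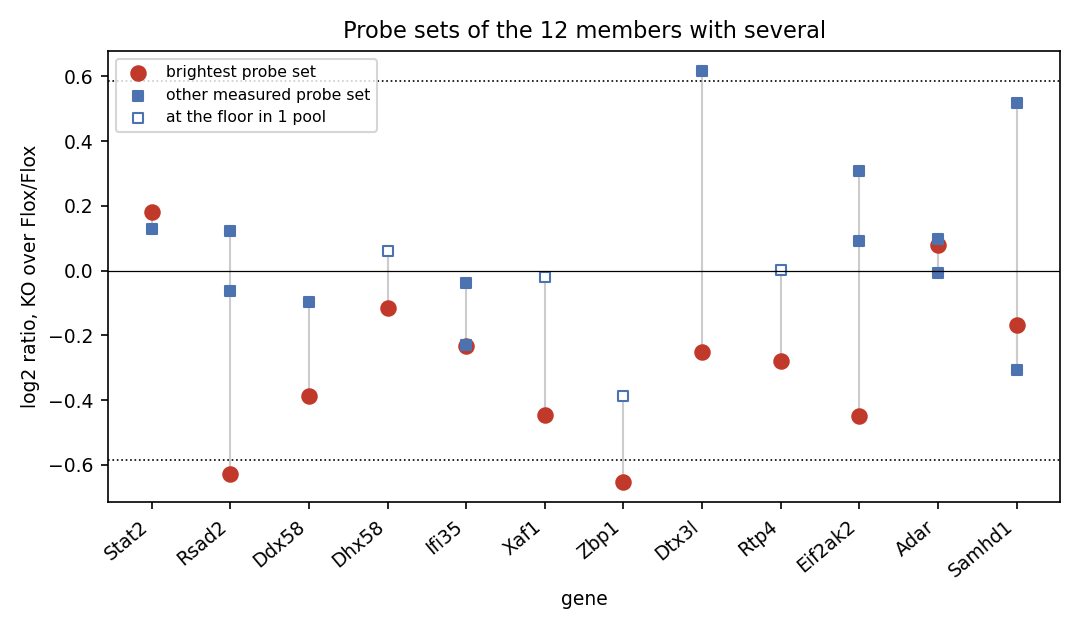
Log2 ratio (y axis) of each measured probe set of the 12 members with more than 1 (x axis); red circles are the brightest, blue squares the others, open squares have 1 pool at the floor, and dotted lines mark 1.5-fold. The brightest and the next agree closely for Ifi35 (-0.23 and -0.23) and lie on opposite sides of 0 for Dtx3l (-0.25 and 0.62) and Eif2ak2 (-0.45 and 0.09).

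Of these 12 members, the next brightest probe set had the same direction as the brightest in 7. Where both were above the floor in both pools, the count was 5 of 8 (62.5%). Among all genes with a pair of such probe sets it was 54.1% of 4489. The brightest probe sets of these 12 had a median of -0.27, with 10 below 0 and 2 at least 1.5-fold lower (Rsad2 and Zbp1). The next brightest had a median of -0.014, with 7 below 0 and none 1.5-fold lower, where 3.81% of genes passed that size. Usp18, Ifit1 and Ifit2 have 1 probe set each, so their ratios have no second reading on these arrays.

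Comparing the classes, the 18 measured members led by type I interferons had a median of -0.35, with 14 below 0 and 4 at least 1.5-fold lower. The 10 members that answer to both types had a median of -0.20, with 8 below 0 and 1 (Zbp1) lower by that size. Over all measured genes, 49.3% were below 0 and 3.14% lower by that size. Of the class led by interferon-gamma, only Irf1 and Irf8 were measured, with 1 ratio on each side of 0. The members by themselves therefore do not allow the type I pattern to be set against an interferon-gamma pattern. Genes outside the group were used for that.

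A list of 54 other genes led by type I interferons had 39 measured, with a median of -0.20, 27 below 0, 5 at least 1.5-fold lower and 3 higher. The largest ratios above the floor were those of Pml (257 against 137, -0.91), Trim30a (317 against 184, -0.79), Ifi207 (0.91) and Parp11 (0.70), and second probe sets gave -0.09 for Pml and -0.16 for Trim30a. A list of 35 other genes led by interferon-gamma had 28 measured, with a median of -0.33, 23 below 0 and 11 at least 1.5-fold lower, among them Cxcl9 (2471 against 436, 5.67-fold) and Cxcl10 (284 against 148, 1.93-fold). GTPases made up part of that list, and without them its median was -0.24, with 4 of 19 genes 1.5-fold lower. Of 11 measured GTPases, 8 were lower by that size, with a median of -0.72. Beside these counts, 49.3% of all measured genes were below 0, 3.14% were 1.5-fold lower and 4.01% higher. By brightest probe sets, values of both patterns were thus lower, with the lowest single ratios among genes led by interferon-gamma. By second brightest probe sets, the 13 other genes led by type I interferons that have one had a median of 0.085. The 7 such genes led by interferon-gamma, GTPases among them, had a median of -0.32. Whether the patterns differ cannot be tested with 1 pool per genotype.

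**Figure D4:**
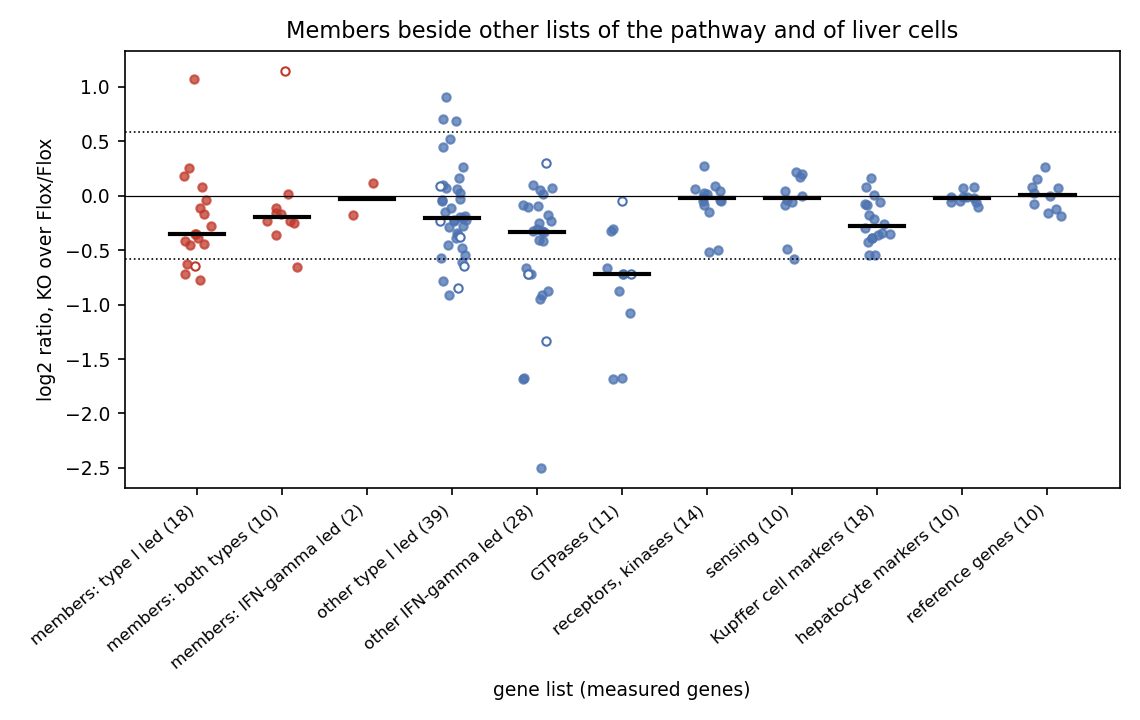
Log2 ratios (y axis) of the measured genes of 11 lists (x axis, number of measured genes in parentheses), 1 point per gene, with members in red and other lists in blue; open points have 1 pool at the floor, black bars are medians and dotted lines mark 1.5-fold. Medians are -0.35 for members led by type I interferons, -0.33 for other genes led by interferon-gamma, -0.72 for GTPases and 0.0079 for reference genes.

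The interferons themselves were mostly not measurable, and genes of their receptors and of sensing lay within 1.5-fold. Ifnb1 (35.9 and 60.9) and Ifng (1.80 and 1.24) did not reach the floor. Of 20 interferons and cytokines that induce interferon-gamma, Ifna1, close to the floor, and Il18 were measured (log2 ratios -0.09 and 0.07). The type I receptor chains Ifnar1 (0.02) and Ifnar2 (-0.08) and the interferon-gamma receptor chain Ifngr1 (-0.04) were nearly level, and Ifngr2 was 0.27, with -0.17 in its other probe set. None of 14 measured receptors, kinases and regulators and none of 10 measured genes of nucleic acid sensing upstream of interferons was 1.5-fold apart. Their medians were -0.03 and -0.02. Some were nonetheless lower than the members' median. Stat3, a factor of cytokine signalling, was 4190 and 2933 (-0.51), with -0.21 in its second probe set. Socs3, an inhibitor of cytokine receptors, was 398 and 282 (-0.50), with -0.15 in its second. In the sensing list Irf5, a factor of myeloid cells, was lowest (-0.58), followed by Ikbke, a kinase that activates interferon regulatory factors (577 and 411, -0.49).

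Among measured members with a promoter window, those with an ISRE core had a lower median than those without. Measured members without a window are in neither median. These were Usp18 (-0.77), Zbp1 (-0.65), Rtp4 (-0.28), Parp14 (-0.16), Dhx58 (-0.11), Parp9 (-0.11) and Oas2 (1.07). The 10 measured members with a core had a median of -0.36, with 8 below 0 and 2 at least 1.5-fold lower, and the 13 without a core had -0.17, with 9 below 0 and 1 lower. For the GAS core the order was the opposite, with -0.21 for 10 members with it and -0.35 for 13 without. Outside the group, 343 measured genes with an ISRE core had a median of -0.02, and 6.71% of them were at least 1.5-fold lower, against 2.84% of 9382 genes without one. Ratios were below 0 for 53.1% of the genes with a core and 49.5% of those without. Leaving out genes of the interferon lists, the share with an ISRE core that was at least 1.5-fold lower was 4.08% of 319. For the GAS core, 2.96% of 778 genes outside the group were lower by that size, against 2.97% of 8947 without one. These shares are descriptions of 2 arrays.

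Markers of Kupffer cells and macrophages were also mostly lower in L-Lpcat3 KO. Of 18 markers, all were measured, 15 had ratios below 0, none was 1.5-fold lower, and the median was -0.28. Over all measured genes, 49.3% were below 0 and 3.14% were lower by that size. Summed over the markers, the signal was 27150 for Flox/Flox against 24953 for L-Lpcat3 KO. The defining Kupffer cell markers Clec4f (-0.06) and Timd4 (-0.54) were both above the floor. Some markers were nearly level, among them Clec4f, Csf1r (-0.08) and Slc40a1 (0.08). In whole liver, fewer cells of a type and less RNA per cell cannot be told apart, and the part of these markers in the members' ratios was not tested. Lymphocyte and NK cell markers were mostly below the floor (6 of 22 measured, summed signal of the measured ones 637 and 612), hepatocyte markers had a median of -0.02 and reference genes of 0.0079. Markers of liver sinusoidal endothelium ran the other way, with all 12 measured, a median of 0.22 and 9 above 0. Dendritic cell markers (6 of 13 measured, Bst2 among them) had a median of 0.04, and neutrophil markers (7 of 13) of -0.12. Of 30 genes of other tissues, 9 were measured, with a median of -0.29 and all 9 below 0. All dim genes together had a median of 0.03, but the 9 genes were not all dim (Prm1 was 780 and 734).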

How the data were processed

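The authors pooled liver RNA of 5 mice per genotype and hybridized 1 Affymetrix mouse array for each. The deposited values are signal intensities, 1 per probe set and array, on a linear scale. Per the labels these are MAS5 signals, with the version not given in the sources used here, and the methods name GeneSpring GX. The mean of each array without its lowest and highest 2% of signals was 500.004, so both had been scaled before deposit. Detection calls were not used here.

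Of 45101 probe sets, 64 were controls, 34945 listed 1 gene, 932 several and 9160 were unnamed here; symbols were updated by gene ID to RefSeq (GRCm38.p6). Values were taken as log2 and not scaled again. Those under the median of both arrays (76.4) were raised to it, and a ratio with 1 pool there is written as "at least". Each gene took its probe set with the highest mean log2 signal. With 1 array per group no test was run, and the number of arrays limits the precision. Genes were counted at 1.5-fold and 2-fold beside the same count over all measured genes. Promoter windows are from RefSeq (GRCm38.p6). The files name no build, so no other coordinates are given.

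The members, classes and lists were chosen with earlier results of these data known. Named genes were all members, up to 4 genes with the largest ratios and the 2 brightest of each other list, the interferons and their receptors, and, chosen after their values were seen, the Kupffer cell marker Clec4f and, in the closing section, Uba7 and Ube2l6. Printed promoters were Irf1 and up to 6 members with the lowest ratios that hold a core and lay above the floor in both pools, and Ifih1 was left out because its core lies too far past its start. Scripts were tested on simulated data. Alternatives changed the scaling (median centring, quantile, loess with a span of 0.3), the floor, the probe set summary, the genes counted as measured and the classes. A value was said to have moved when it changed by over 0.1 (log2) or a count by over 1.5 times. Python 3.11.15 with numpy 2.4.6, pandas 2.3.3, statsmodels 0.14.6 and matplotlib 3.10.9 was used.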

Additional observations from a re-analysis of the deposited data

Results flagged for a closer look

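A signal in data outside the comparison of genes concerns Isg15, the modifier that Usp18 removes. Its 1 probe set lists a second, predicted gene, so the signal cannot be given to Isg15 alone and took no part in the counts. This shared signal was 361 for Flox/Flox against 228 for L-Lpcat3 KO, a log2 ratio of -0.66 (1.58-fold lower).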

How the results depend on the processing

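The members' median stayed below 0 under all 11 alternatives, as did the median of those led by type I interferons, and 42 of 56 recomputed values stayed within the limits for a move. Median centring, quantile normalization and loess moved none of the values given for the members and their classes, and 5 members (16.7%) were 1.5-fold lower in each. Of all measured genes, 4.30%, 3.43% and 3.33% were lower by that size in these settings, in that order. Of the 30 members, 23 kept the sign of their ratio in all settings that gave a value. With the second brightest probe set, which 12 members have (Usp18, Ifit1 and Ifit2 are not among them), the median was -0.014, against -0.27 for the brightest of the same 12. None was 1.5-fold lower (2 by the brightest), where 3.81% of all genes with such a probe set were. Below 0 were 7 members (10 by the brightest), against 49.5% of those genes. Members led by type I interferons were at -0.0041, and other genes led by type I interferons reversed to 0.085. Other genes led by interferon-gamma stayed within the limit, at -0.32 over 7 genes. With the mean over probe sets, 3 members (10%) were 1.5-fold lower, against 2.75% of all measured genes, and the median of those led by type I interferons was -0.18. The count lower was 3 of 20 measured members (15%) when the floor was raised to the 75th percentile, against 0.812% of all measured genes. It was 2 (6.67%) with a pseudocount in place of the floor, against 2.21%. Usp18 and Ifit1 were at least 1.5-fold lower in all 10 alternatives that gave them a value, Ifit2 in 7 of 8, Rsad2 in 8 of 11 (highest log2 ratio -0.06, with its second brightest probe set) and Zbp1 in 6 of 10 (highest -0.39). The median of the interferon-gamma class, which rests on 1 to 3 genes, was 0.11 with the floor at the 25th percentile, with no floor, and without probe sets ending in _s_at, _a_at or _x_at, and -0.18 with the floor at the 75th percentile. With members of both types counted in, it was -0.18, and that of the type I class -0.24. The causes of these moves were not tested. Signals near the floor limit Ifit2, Oas2 and Sp100. No paired analysis was possible because each genotype is 1 pool.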

Other observations

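The enzymes that attach Isg15, chosen for mention after their values were seen, were within 1.5-fold. Uba7, the activating enzyme, read 221 for Flox/Flox against 193 for L-Lpcat3 KO (log2 ratio -0.19), with 0.32 in its second probe set, and Ube2l6, the conjugating enzyme, was 409 and 399 (-0.04), beside 808 and 473 for Usp18, which removes the modifier.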
